A study of Mus musculus with 4 samples.

Results

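The genes described here were 7 annexins (Anxa1, Anxa2, Anxa4, Anxa5, Anxa6, Anxa7 and Anxa11) and 3 S100 genes (S100a6, S100a10 and S100a11) whose proteins pair with annexins. They were picked by symbol from the 47729 gene rows of the count table, and each symbol matched 1 Ensembl gene. The set was picked with the counts of FeSO4-treated and Mock cells in view. The differences between these groups are therefore given for its 10 genes as a description, with a standard error (SE) and without a p-value. Calls by p-value are listed for the set beside those of all genes, and nothing is read from them.

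RNA-seq was performed on induced regulatory T (iTreg) cells, which were made in culture from CD4 T cells of C57BL/6 mice to ask how iron changes their transcriptome. The labels name spleen as the tissue, and the study's methods name naïve cells of spleen and lymph nodes, activated through CD3 and CD28. Every culture received IL-2 at 100 U/mL, blocking antibodies to IL-4 and IFN-γ at 5 μg/mL each, and TGF-β at 5 ng/mL. Ferrous sulfate (FeSO4, 50 μM) or PBS (Mock) was given for 4 days, with 2 libraries per group. The mice were wild type per the methods, aged 6 to 8 weeks per the study's reporting summary, and no sort of the cultured cells before RNA extraction was stated. Per the methods the libraries were 2 pairs from independent experiments, so p-values rest on the spread between 2 cultures per group. The labels do not tie the replicate numbers to the pairs, and the fit used here has no term for them.

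Annexins are proteins that bind acidic phospholipids when calcium rises, and they gather at membranes during vesicle traffic, endocytosis and repair of the plasma membrane. S100 proteins are small EF-hand calcium sensors that mostly act as dimers, and several of them clasp the N-terminal tail of an annexin. S100A10 with ANXA2 is the best known of these complexes, S100A11 pairs with ANXA1, and S100A6 binds ANXA11 among other partners. ANXA1 is also released from leukocytes, where it acts on formyl peptide receptors to limit inflammation.

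Gene rows held 35183187 to 40859178 reads in each library, and all 10 genes passed the filter on low counts. T cell markers were present in every library, with Cd3e at 304 to 346 CPM (the count scaled to a common library size) and Cd4 at 606 to 683 CPM. Foxp3, the lineage factor of regulatory T cells, was lower in both FeSO4 libraries (376 and 472 CPM) than in both Mock libraries (587 and 693 CPM). The other genes of that list did not follow it, with Il2ra at 1395 and 1586 CPM in Mock against 1481 and 1550 CPM, Ctla4 at 136 and 147 against 138 and 179 CPM, and Cd5 at 337 and 306 against 374 and 371 CPM. Summed B cell markers stood at 161 and 168 CPM in Mock against 247 and 277 CPM in FeSO4, nearly all from Ighm, with Cd79a at 2.64 and 1.84 against 2.22 and 1.86 CPM and Ms4a1 at 0 outside Mock replicate 1. Summed myeloid markers stood at 89.6 and 100 CPM against 117 and 120 CPM, nearly all from Cst3, with Mpo and Elane at 0. Lyz2, also a myeloid marker, had 164, 8, 0 and 0 reads in Mock 1, Mock 2, FeSO4 1 and FeSO4 2. In the same order Cd68 had 72, 68, 50 and 57 reads. Adgre1 had 8, 28, 12 and 29 reads, with overlap between the groups and a log2 difference of 0.39 ± 0.64 (SE). The erythroid sum was 19.6 and 24.5 CPM against 32.5 and 37.5 CPM, all from Hba-a1, and NK markers had 0 reads. The part of these differences in the results below was not tested. In Mock replicate 1, 4 of 4 stromal and epithelial markers were highest, and their sum was 28 CPM against 1.43 to 1.94 CPM in the other 3 libraries. Over 13732 genes tested with edgeR's quasi-likelihood test, 1491 were called higher and 1259 lower with FeSO4 at an adjusted p of 0.05. With scaling by library size alone these counts were 980 and 1810, and without FeSO4 replicate 1 they were 893 and 710.

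Anxa2 had the largest difference of the set, and both FeSO4 libraries lay well above both Mock libraries. Its protein links membranes to actin and, with S100A10, docks plasminogen activators at the cell surface. Anxa2 (ENSMUSG00000032231, chr9:69453683-69491792 in GRCm38.p6, plus strand) was counted at 150 and 142 CPM in Mock and at 334 and 341 CPM in FeSO4. The groups did not overlap, and libraries of a group lay close together. The mean went from 146 ± 5.87 CPM (SD, n = 2) to 337 ± 4.78 CPM (SD, n = 2), a 2.31-fold ratio and a log2 fold change of 1.21 ± 0.06 (SE). Of all genes tested, 98.2% had a smaller log2 fold change. Over 13 other settings and left-out libraries the value stayed between 1.14 and 1.24. Exons of Anxa2 overlap those of the antisense transcript Gm16144 over 98 bp, which is 2.63% of its exon length, and the strand setting of the counting was not given in the sources used here.

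S100a10, which encodes the partner of ANXA2, overlapped between the groups. S100a10 (ENSMUSG00000041959, chr3:93555117-93564645, plus strand) was counted at 386 and 395 CPM in Mock and at 383 and 414 CPM in FeSO4. The FeSO4 libraries held both the lowest and the highest of these values. The means were 390 ± 6.38 CPM and 398 ± 21.9 CPM (SD, n = 2 each), and the log2 fold change was 0.03 ± 0.06 (SE). The value was 0.09 without FeSO4 replicate 1. The sign was negative without FeSO4 replicate 2 (-0.02) and with scaling by library size alone (-0.03), which moved the median of all genes to -0.07. The number of S100a10 reads per Anxa2 read was 2.56 and 2.78 in Mock and 1.15 and 1.22 in FeSO4, a difference of -1.18 on the log2 scale. The ratio was lower in each FeSO4 library than in either Mock library, with Anxa2 separated between groups and S100a10 not. Divided by exon length, S100a10 was 7.89 and 8.55 times the level of Anxa2 in Mock and 3.53 and 3.74 times in FeSO4, so S100a10 remained the more abundant transcript.

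**Figure D1:**
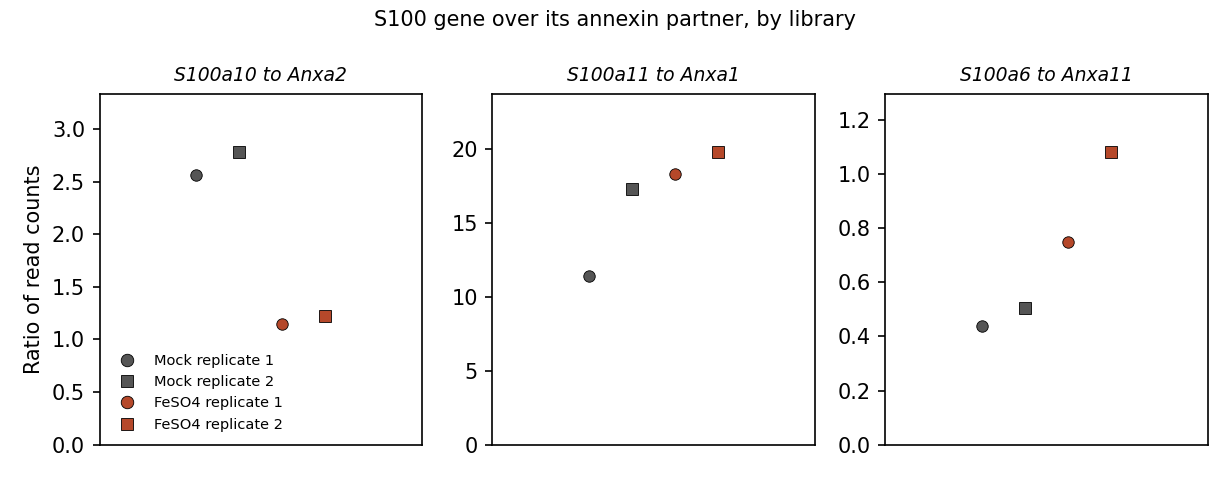
Read count of an S100 gene divided by that of its annexin partner in each library (y axis, ratio of counts with no unit, starting at 0), for S100a10 to Anxa2, S100a11 to Anxa1 and S100a6 to Anxa11. Grey symbols are Mock, red symbols FeSO4, circles replicate 1 and squares replicate 2; the S100a10 to Anxa2 ratio lies at 2.56 and 2.78 in Mock and at 1.15 and 1.22 in FeSO4.

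S100a6 had the second largest difference and, on the log2 scale, the widest spread in FeSO4. It encodes calcyclin, an S100 protein of dividing cells that binds ANXA11 and the ubiquitin ligase adaptors CACYBP and SUGT1. S100a6 (ENSMUSG00000001025, chr3:90612894-90614414, plus strand) was counted at 28.8 and 32.2 CPM in Mock and at 42.8 and 60.2 CPM in FeSO4. Both FeSO4 libraries were higher, but replicate 1 minus replicate 2 was -0.49 on the log2 scale, at the 9.09 percentile of all genes. The means were 30.5 ± 2.44 CPM and 51.5 ± 12.2 CPM (SD, n = 2 each), a 1.69-fold ratio and a log2 fold change of 0.76 ± 0.12 (SE). FeSO4 replicate 2 set much of this size, as the value was 0.49 without it and 0.98 without FeSO4 replicate 1.

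Anxa11, the partner of S100A6, was the member whose FeSO4 libraries both lay below Mock. Its protein has a long disordered N-terminal region and tethers RNA granules to lysosomes. Anxa11 (ENSMUSG00000021866, chr14:25842127-25886804, plus strand) was counted at 65.6 and 63.9 CPM in Mock and at 57.2 and 55.5 CPM in FeSO4. The groups did not overlap, and the gap between them was small. The means were 64.8 ± 1.18 CPM and 56.3 ± 1.22 CPM (SD, n = 2 each), and the log2 fold change was -0.20 ± 0.08 (SE). The S100a6 to Anxa11 read ratio was 0.439 and 0.504 in Mock and 0.749 and 1.08 in FeSO4, a difference of 0.94 on the log2 scale to which S100a6 contributed most. Of the 2367 bp Anxa11 transcript, 1396 bp (59%) occur with 100% identity at 2 other places of the mm9 assembly. Reads from that stretch can align to more than 1 place, such reads were not assigned to genes, and the effect on the Anxa11 count was not tested.

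S100a11 was modestly higher with FeSO4. Its protein, calgizzarin, pairs with ANXA1 and takes part in plasma membrane repair. S100a11 (ENSMUSG00000027907, chr3:93520496-93526288, plus strand) was counted at 66 and 54.6 CPM in Mock and at 75.3 and 81.8 CPM in FeSO4. The groups did not overlap, and the Mock libraries differed by 0.27 on the log2 scale. The means were 60.3 ± 8.03 CPM and 78.5 ± 4.57 CPM (SD, n = 2 each), and the log2 fold change was 0.38 ± 0.09 (SE). The value was 0.26 without Mock replicate 2 and 0.52 without Mock replicate 1, the library with the stromal and epithelial reads. Nearly the whole S100a11 transcript (98.2%) also matches 2 other places of the mm9 assembly at 98.2 and 98.6% identity, and 72.7% of the S100a10 transcript matches 1 other place at 81.8% identity. The other 7 genes had no such second place.

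Anxa1, whose protein is the secreted ligand of formyl peptide receptors, was the lowest of the set and was not separated between groups. Anxa1 (ENSMUSG00000024659, chr19:20373434-20390671, minus strand) had 234 and 132 reads in Mock and 141 and 153 reads in FeSO4. In CPM, Mock stood at 5.77 and 3.16 and FeSO4 at 4.12 and 4.13, so the FeSO4 libraries lay between the Mock libraries. The log2 fold change was -0.11 ± 0.27 (SE), the largest error of the set. It was 0.38 without Mock replicate 1 and -0.48 without Mock replicate 2, so the sign rested on which Mock library was used. The Mock libraries differed by 0.87 on the log2 scale, at the 96.3 percentile of all genes. Mock replicate 1 also held 784 reads of Krt8 and 231 of Epcam, keratin and adhesion genes of epithelium, against 4 to 16 and 37 to 67 in the other libraries. The part of these reads in the Anxa1 value was not tested. The S100a11 to Anxa1 read ratio was 11.4 and 17.3 in Mock and 18.3 and 19.8 in FeSO4, and the low value of Mock replicate 1 came with its high Anxa1 count.

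Of the remaining 4 annexins, Anxa7 and Anxa4 were higher in both FeSO4 libraries. Anxa7 (synexin, ENSMUSG00000021814, chr14:20455261-20480133, minus strand) drives calcium-dependent membrane fusion. It was counted at 77.9 and 72.4 CPM in Mock and at 103 and 99.6 CPM in FeSO4, a 1.35-fold ratio and a log2 fold change of 0.43 ± 0.07 (SE). Anxa4 (ENSMUSG00000029994, chr6:86736840-86793634, minus strand), which forms ordered arrays on membranes, was counted at 32.3 and 31.1 CPM in Mock and at 38 and 41.3 CPM in FeSO4. This was a 1.25-fold ratio and a log2 fold change of 0.33 ± 0.09 (SE). For both genes the groups did not overlap, and over the alternatives the value lay between 0.37 and 0.48 for Anxa7 and between 0.26 and 0.39 for Anxa4.

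Anxa5 and Anxa6 stood close to their Mock levels. ANXA5 binds exposed phosphatidylserine and is the standard label of dying cells, and ANXA6, with a longer repeat core, acts in endosomal cholesterol traffic and is abundant in lymphocytes. Anxa5 (ENSMUSG00000027712, chr3:36448923-36475887, minus strand) was counted at 169 and 155 CPM in Mock and at 179 and 178 CPM in FeSO4, with a log2 fold change of 0.14 ± 0.07 (SE). Anxa6 (ENSMUSG00000018340, chr11:54978953-55033471, minus strand) was counted at 878 and 903 CPM in Mock and at 947 and 931 CPM in FeSO4, with a log2 fold change of 0.08 ± 0.06 (SE). In both cases the FeSO4 libraries were slightly above both Mock libraries. With scaling by library size alone the values were 0.07 for Anxa5 and 0.01 for Anxa6, beside that median of -0.07. Anxa5 was at 0.08 without Mock replicate 2, and Anxa6 at 0.05 without Mock replicate 1.

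**Figure D2:**
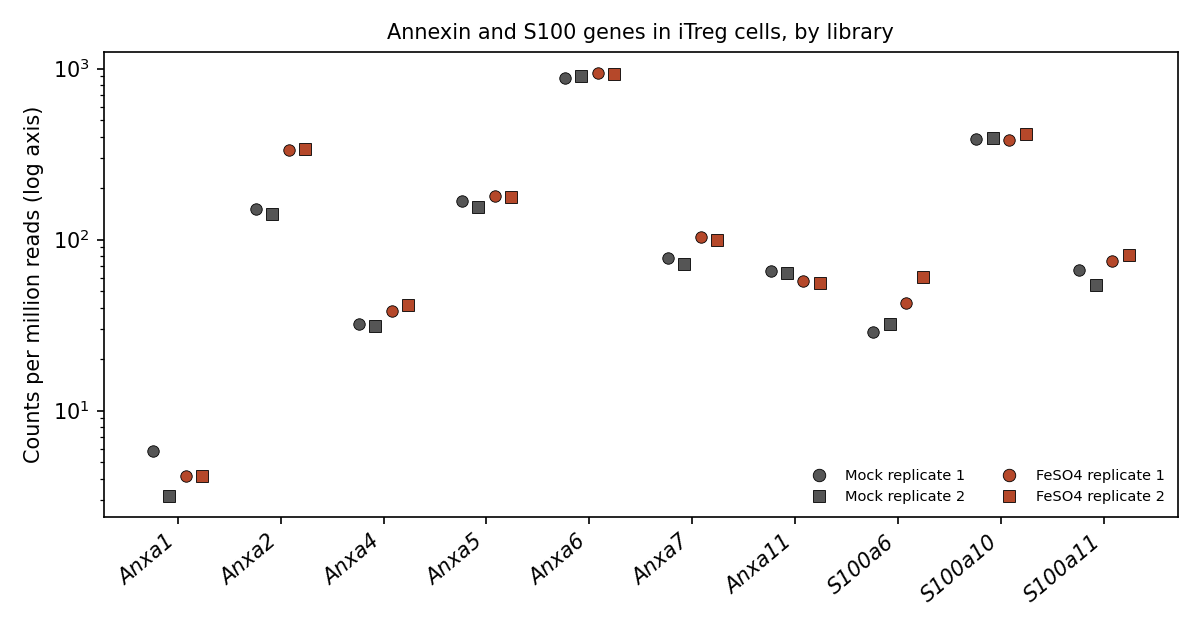
Level of the 10 genes in each library (y axis, CPM on a log axis). Grey symbols are Mock, red symbols FeSO4, circles replicate 1 and squares replicate 2; Anxa2 stands at 150 and 142 CPM in Mock against 334 and 341 CPM in FeSO4, whereas Anxa6 stays between 878 and 947 CPM.

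**Figure D3:**
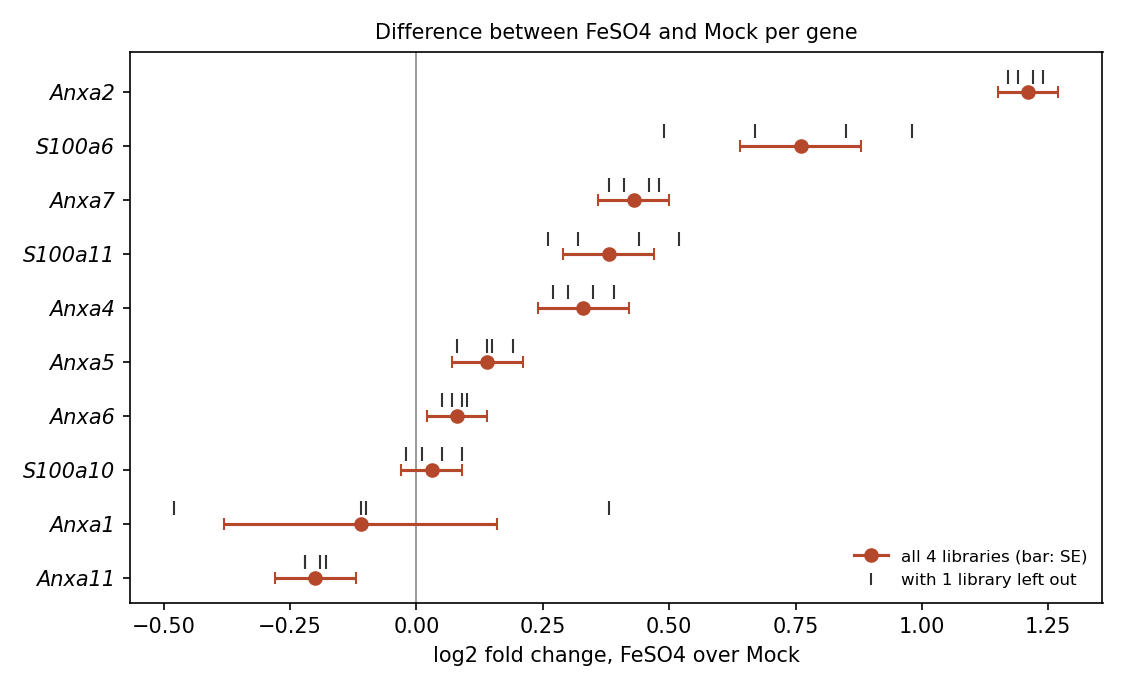
Log2 fold change of FeSO4 over Mock per gene (x axis), from the fit over all 4 libraries (red points, bars are the SE) and with 1 library left out (black ticks). Anxa2 at 1.21 stands apart from the rest, S100a6 spans 0.49 to 0.98, and Anxa1 spans -0.48 to 0.38.

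Across the set, 8 log2 fold changes were positive and 2 negative, with a median of 0.23 (0.36 without Mock replicate 1) against 0.00 over all genes tested. In 7 of the 10 genes both FeSO4 libraries lay above both Mock libraries, where 30.1% of all genes did, and in 1 both lay below, where 29.4% of all genes did. By edgeR's adjusted p of 0.05, 5 genes were called higher (Anxa2, Anxa4, Anxa7, S100a6 and S100a11), beside 10.9% of all genes, and 0 lower, beside 9.17%. At an unadjusted p under 0.05 these counts were 5 and 1, beside 17.1% and 15.2% of all genes, and DESeq2 and limma-voom also called 5 and 0. The count called higher was 3 without Mock replicate 2 (Anxa2, Anxa7 and S100a6), 2 with every gene of at least 1 count tested (Anxa2 and Anxa7), and 4 with scaling by library size alone, when Anxa11 was called lower. The study's threshold of an unadjusted p under 0.05 with a log2 fold change of 0.5 or more in size was passed by 2 (Anxa2 and S100a6, both higher), where 4.67% of all genes passed it upward and 5.73% downward. Without FeSO4 replicate 2 it was passed by 1 (Anxa2), and without Mock replicate 1 by 3 (S100a11 in addition). With the replicate number as a block, 5 were called higher and 1 lower (Anxa11), beside 1847 and 1580 of the 13732 genes tested. The set was picked from this contrast, and nothing is read from its counts. Summed over the 7 annexins, Mock stood at 1379 and 1371 CPM and FeSO4 at 1663 and 1650 CPM. Of the mean difference, Anxa2 made up the most, at 146 against 337 CPM. Summed over the 3 S100 genes Mock stood at 480 and 481 CPM and FeSO4 at 501 and 556 CPM. In bulk RNA, a change in the share of cells with a transcript and a change in its amount per cell cannot be told apart.

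Per kilobase of exon, S100a10 and Anxa6 were the most abundant of the set. In Mock, S100a10 stood at 322 ± 5.26 and Anxa6 at 304 ± 5.99 CPM per kb (SD, n = 2), above 98.8% and 98.7% of 12773 genes with a length. S100a11 (118 ± 15.7) and Anxa5 (96.7 ± 5.85) followed, then S100a6 (42.4 ± 3.39), Anxa2 (39.2 ± 1.57), Anxa7 (24.8 ± 1.29), Anxa11 (15.8 ± 0.287), Anxa4 (6.82 ± 0.186) and Anxa1 (1.71 ± 0.708). Of these neighbors, S100a6 (40 and 44.8) and Anxa2 (40.3 and 38.1) overlapped between libraries. In FeSO4, S100a10 (329 ± 18.1) and Anxa6 (321 ± 3.86) overlapped, and Anxa2 (90.4 ± 1.28) stood above both libraries of S100a6 (71.6 ± 17). With the longest transcript in place of all exons, Anxa2 (64.1 CPM per kb) already stood above S100a6 (42.4) in Mock.

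**Figure D4:**
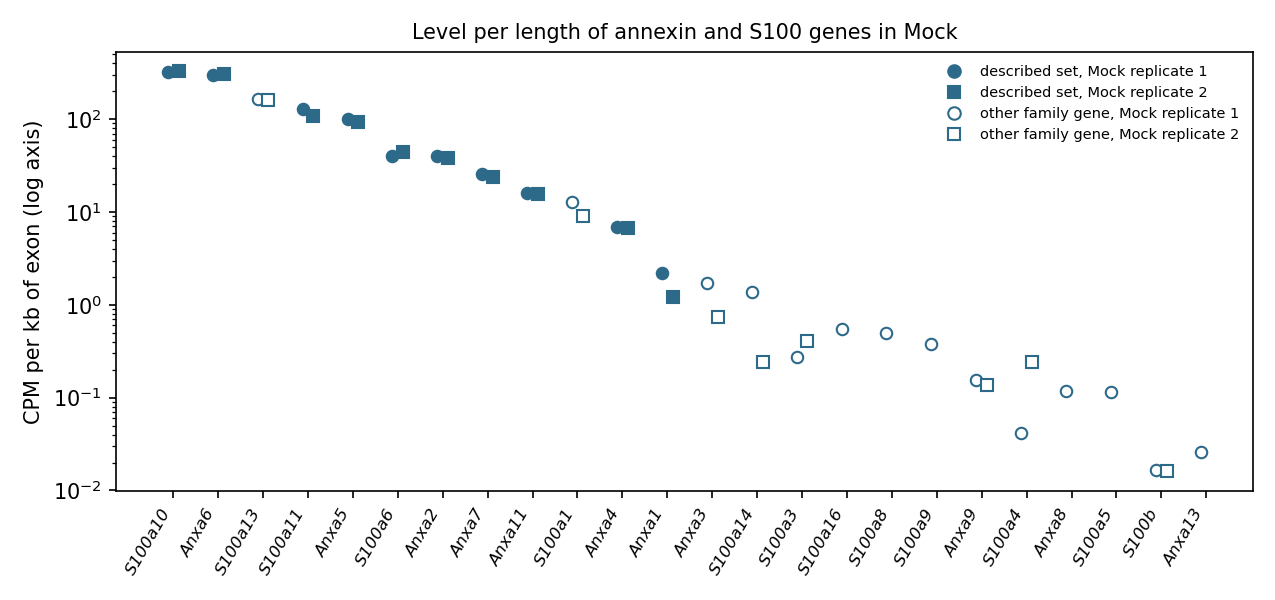
Level per length of annexin and S100 genes in the Mock libraries (y axis, CPM per kb of exon on a log axis). Filled symbols are the 10 genes described, open symbols other genes of the families, circles replicate 1 and squares replicate 2, and values of 0 are not drawn; S100a10 and Anxa6 lead with 322 and 304 CPM per kb on average.

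The 250 bases before the annotated start are printed for Anxa2 and S100a6, whose differences were largest. They are also printed for S100a11 and Anxa5, whose windows hold ACGTG, as that of Anxa2 does. The sequences are from RefSeq (GRCm38.p6), at chr9:69453433-69453682, chr3:90612644-90612893 and chr3:93520246-93520495 on the plus strand and chr3:36475888-36476137 on the minus strand. Capitals mark ACGTG, the core of hypoxia response elements, and TGANTCA, an AP-1 site, on either strand.
Anxa2: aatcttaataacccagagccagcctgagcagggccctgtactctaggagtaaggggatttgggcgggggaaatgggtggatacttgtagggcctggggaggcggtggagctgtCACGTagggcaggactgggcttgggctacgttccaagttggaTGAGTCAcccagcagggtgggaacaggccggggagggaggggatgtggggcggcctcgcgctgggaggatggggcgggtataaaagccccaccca
S100a6: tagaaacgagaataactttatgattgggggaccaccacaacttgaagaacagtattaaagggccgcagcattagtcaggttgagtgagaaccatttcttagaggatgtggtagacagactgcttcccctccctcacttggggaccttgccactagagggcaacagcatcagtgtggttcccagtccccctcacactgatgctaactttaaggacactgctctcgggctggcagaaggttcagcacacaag
S100a11: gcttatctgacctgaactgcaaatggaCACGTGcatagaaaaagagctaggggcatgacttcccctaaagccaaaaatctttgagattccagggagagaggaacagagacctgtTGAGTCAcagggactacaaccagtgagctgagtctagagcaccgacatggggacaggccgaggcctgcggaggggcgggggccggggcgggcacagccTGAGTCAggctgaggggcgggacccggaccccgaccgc
Anxa5: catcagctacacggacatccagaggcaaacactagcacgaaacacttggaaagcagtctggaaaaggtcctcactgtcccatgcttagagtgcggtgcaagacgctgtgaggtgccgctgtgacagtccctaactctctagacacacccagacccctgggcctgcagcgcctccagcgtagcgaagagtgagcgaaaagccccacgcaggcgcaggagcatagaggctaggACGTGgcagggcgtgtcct
The Anxa2 window holds ACGTG beginning 137 bases and TGANTCA 95 bases before the start, and a TATAAA box 17 bases before it. S100a11 has TGANTCA at 136 and 38 bases, and ACGTG on both strands at 223 and 222 bases. The second of the Anxa7 windows also holds ACGTG on both strands, at 113 and 112 bases, and is not printed because it reaches into the annotated gene. Anxa5 has ACGTG at 19 bases, and the S100a6 window holds neither of the capitalised motifs. Windows of Anxa1 (TATAAA) and of Anxa7 and Anxa11 (GGGCGG, a GC box) also share a motif with Anxa2 and are not printed. RefSeq windows were found for 8 of the 10 genes, 10 windows in all. ACGTG lay in 4 of the 10 and in 16.6% of all 32851 windows, TGANTCA in 2 and 6.75%, TGACNNNGC (the antioxidant response core, which can overlap TGANTCA) in 1 and 10.2%, GGGCGG in 5 and 32.7%, and TATAAA in 2 and 12.4%. The Anxa7 windows overlap and share a GGGCGG match, and by gene GGGCGG lay in 4 of 8. A match is a stretch of letters, and binding was not measured.

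Of 17 S100 genes listed, 14 are on chromosome 3, among them all 3 of the set. S100a6 lies 1.11 kb from S100a5 and 6.85 kb from S100a4, whereas S100a11 lies 2.91 Mb from S100a6 and 28.8 kb from S100a10. These close neighbors of S100a6 did not have its level, since S100a5 had 2, 0, 0 and 0 reads and S100a4 had 1, 6, 4 and 3 reads in Mock 1, Mock 2, FeSO4 1 and FeSO4 2.

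Of the 19 other annexin and S100 genes, 5 had enough reads to be tested, and edgeR's quasi-likelihood test with Benjamini-Hochberg adjustment called 0 of them in either direction. DESeq2 and limma-voom also called 0, and 1 had an unadjusted p under 0.05, as did 32.3% of all genes. With the replicate number as a block, S100a14 was called lower (-1.90, adjusted p = 0.0295, edgeR), beside 1580 of the 13732 genes tested. S100a13, which helps export FGF1, was the most abundant, at 163 ± 2.83 CPM per kb in Mock, and its log2 difference was -0.09 ± 0.07 (SE, adjusted p = 0.405, edgeR). S100a1 (364, 262, 202 and 228 reads in the same order), a calcium sensor best known in heart muscle, had -0.33 ± 0.20 (SE, adjusted p = 0.274, edgeR). Anxa3 (111, 49, 30 and 53 reads) had -0.74 ± 0.44 (SE, adjusted p = 0.26, edgeR), and Anxa9 (13, 12, 11 and 15 reads) had 0.26 ± 0.65 (SE, adjusted p = 0.824, edgeR). S100a14 (60, 11, 2 and 14 reads), an epithelial S100 gene, had -1.93 ± 0.83 (SE, adjusted p = 0.118, edgeR). The S100a14 value was -2.70 without Mock replicate 2, when Mock replicate 1 alone stood for the group. Without Mock replicate 1 it was -0.23, and leaving out an FeSO4 library gave -1.18 (replicate 1) or -3.81 (replicate 2). Without Mock replicate 1, Anxa3 stood at -0.02 and S100a1 at -0.06, and without Mock replicate 2 they stood at -1.23 and -0.57. Leaving out FeSO4 replicate 1 or 2 gave -0.44 or -1.14 for Anxa3 and 0.42 or 0.08 for Anxa9. Reads of S100a16 (36, 0, 0 and 1), Anxa8 (9, 0, 0 and 0), S100a8 and S100a9 (8, 0, 0 and 0 each), the latter pair being granulocyte proteins, were likewise almost all in Mock replicate 1. Anxa10, S100a7a, S100a7l2, S100g and S100z had 0 reads in every library, which allows up to 3 reads, or 0.0717 to 0.0876 CPM. S100a3 had 1 to 12 reads, and Anxa13 and S100b had at most 1 read in a library.

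**Figure D5:**
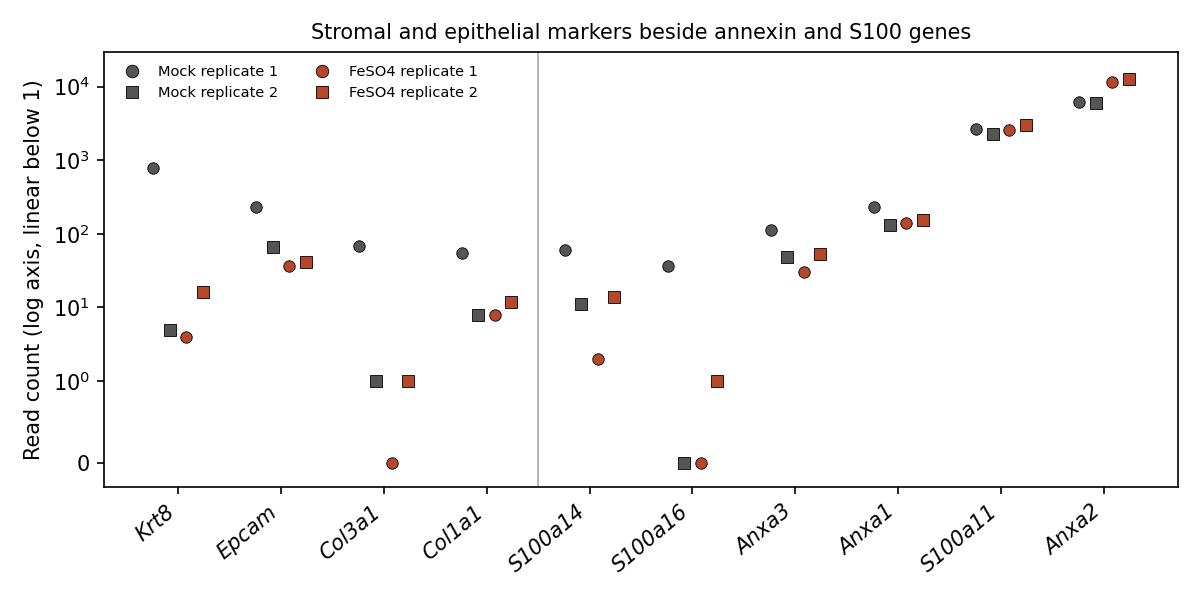
Read counts (y axis, log axis, linear below 1) of 4 stromal and epithelial markers (left of the line) and 6 annexin and S100 genes (right). Grey symbols are Mock, red symbols FeSO4, circles replicate 1 and squares replicate 2; Krt8 has 784 reads in Mock replicate 1 and 4 to 16 elsewhere, and Anxa1 has 234 reads there and 132 to 153 elsewhere, whereas Anxa2 has most reads in the FeSO4 libraries.

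Among 17 listed binding partners of these proteins, 13 were tested, with a median log2 fold change of 0.18. By edgeR's quasi-likelihood test 2 were called higher and 0 lower, near the 10.9% and 9.17% of all genes. Both genes called are partners of S100A6, and nothing is read from 2 calls. Cacybp, the calcyclin-binding protein, rose from 107 and 114 CPM in Mock to 142 and 132 CPM in FeSO4 (log2 difference 0.31 ± 0.07 SE, adjusted p = 0.00469, edgeR). Its call was lost without FeSO4 replicate 1, with a value of 0.26. Sugt1, an HSP90 cochaperone, rose from 63.9 and 68.4 CPM to 82.1 and 82.5 CPM (0.32 ± 0.07 SE, adjusted p = 0.00651, edgeR). Sri (sorcin, a penta-EF-hand partner of ANXA7) stood at 208, 203, 232 and 231 CPM (0.18 ± 0.06 SE, adjusted p = 0.0544, edgeR; 0.0468 by DESeq2). Plgrkt, a plasminogen receptor, stood at 52.2, 46.4, 58.2 and 56.4 CPM (0.22 ± 0.08 SE, adjusted p = 0.0799, edgeR). Its value was 0.30 without Mock replicate 1 and 0.14 without Mock replicate 2. The receptors of ANXA1 were near 0, with 0 reads of Fpr1 and 2 reads of Fpr2, both in Mock replicate 1. At an unadjusted p under 0.05 there were 5 of the 13, near the 32.3% of all genes. A block on the replicate number called 4 partners higher (Sri and Plgrkt in addition), beside 1847 of the 13732 genes tested.

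Of 28 listed genes of calcium-dependent membrane repair and membrane binding, 23 were tested, and 3 were called higher and 2 lower, near the 10.9% and 9.17% of all genes, with a median log2 fold change of -0.02. Capns1, the small subunit of calpain, rose from 276 and 252 CPM to 327 and 318 CPM (0.29 ± 0.06 SE, adjusted p = 0.00453, edgeR). Chmp4b, which builds the ESCRT-III filament, rose from 255 and 258 CPM to 302 and 300 CPM (0.23 ± 0.06 SE, adjusted p = 0.0129, edgeR). Its call was lost without either FeSO4 library, with values of 0.23 (without replicate 1) and 0.24 (without replicate 2). Ano6, a phospholipid scramblase of the surface membrane, fell from 85.1 and 89.6 CPM to 68.7 and 70.8 CPM (-0.32 ± 0.07 SE, adjusted p = 0.00491, edgeR). Ehd1, an endocytic recycling ATPase, fell from 102 and 94.4 CPM to 89.9 and 70.9 CPM (-0.29 ± 0.09 SE, adjusted p = 0.037, edgeR). The Ehd1 call was lost without FeSO4 replicate 2 (-0.12) and without Mock replicate 1 (-0.24). The Ehd1 value was -0.46 without FeSO4 replicate 1 and -0.34 without Mock replicate 2. The third gene called higher was Plscr1, another scramblase family gene (0.25 ± 0.08 SE, adjusted p = 0.0374, edgeR), which was not called without FeSO4 replicate 1 or without either Mock library. At an unadjusted p under 0.05 there were 8 of the 23, near the 32.3% of all genes.

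Libraries of 1 group gave a further measure that did not compare the treatments. Between the Mock libraries, 7 of the 10 genes were higher in replicate 1, with a median difference of 0.07 on the log2 scale, where 50.5% of all genes were higher. Between the FeSO4 libraries, 4 were higher in replicate 1, with a median of -0.02, and 50.7% of all genes were. Apart from Anxa1 and S100a11 in Mock and S100a6 in FeSO4, the libraries of a group differed by at most 0.16 on the log2 scale for each of these genes.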

How the data were processed

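RNA-seq libraries of Mock and FeSO4 iTreg cells (2 each) were analyzed from raw read counts per Ensembl gene deposited by the authors, who had not normalized them. Reads were aligned with STAR, to mm9 per the study's methods. The submitters' processing notes name mm10, Trim Galore 0.6.7, STAR 2.7.9a and featureCounts, while the rows of unassigned reads carry names used by htseq-count, so the build and counter are uncertain, and the strand setting was not given in the sources used here. Rows of unassigned reads were left out of library sizes (reads without a feature 4.36 to 6.03%, ambiguous 3.78 to 3.91%, low quality 0.802 to 0.988%, unaligned 1.8 to 2.31%, aligned more than once 4.27 to 4.62%).

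Symbols matched 32799 IDs, and 14930 IDs without one held 0.755% of counts. Counts were fitted in R 4.3.3 with edgeR 4.0.16 (filterByExpr, TMM, quasi-likelihood F test without a block, Benjamini-Hochberg over 13732 genes). The biological coefficient of variation was 8.24%. CPM used TMM-scaled library sizes, where 3 counts equal 0.0717 to 0.0876 CPM, and such a limit covers counting error alone. Replicates differed by more than sampling noise (chi-square per degree of freedom 11.3 in Mock and 9.02 in FeSO4). Exon lengths came from GENCODE M1 (mm9), positions from RefSeq (GRCm38.p6), and second places from minimap2 2.31 on mm9.

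The 10 genes and the gene lists were chosen with earlier results of these data known. The genes named were all 10, every tested annexin or S100 gene with the counts of the others, and the 4 genes of smallest p in the partner and repair lists. Plscr1 was added after its values were seen. Also named were Fpr1 and Fpr2 as receptors of ANXA1, and Cpne3 and Myof for their calls with the block. Alternatives were DESeq2 1.42.0, limma-voom (limma 3.58.1), other scalings and filters, a replicate block, the threshold of the study (a log2 fold change of 0.5 or more in size with an unadjusted p under 0.05) and leaving out each library. Leaving out a library leaves 1 in its group, so the spread in those fits comes from the other group alone. The legacy edgeR test and the longest transcript length were added after seeing the data. Simulated counts for 13468 genes were drawn from the fitted model. On the log2 scale, 59.1% of 66 genes changed by 0.5 were called, 75% of 60 at 1 and 82.6% of 69 at 1.5. Far fewer genes were changed than the 1491 and 1259 called in the data, so these rates may differ there.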

Additional observations from a re-analysis of the deposited data

How the results depend on the processing

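Of 153 recomputed counts of calls and medians of the 10 genes, 125 stayed within the spread or count limit and 28 moved. By gene, Anxa1 changed sign in 1 of 13 alternatives, S100a10 in 2, and each of the other 8 in 0. With scaling by library size alone, 980 genes were called higher, 1 of the 10 genes lower (Anxa11), 1 membrane repair gene higher, and the median of the 10 was 0.17. With all genes that had at least 1 count, 524 genes were called higher and 304 lower, out of more than 13732 tested. In that setting 2 of the 10 were called higher (Anxa2 and Anxa7), and 0 partners or repair genes in either direction. By the study's threshold 641 genes were higher and 787 lower, with 2 of the 10 higher (Anxa2 and S100a6), 1 other family gene lower, 1 partner higher, and 0 repair genes higher and 1 lower. Leaving out each library gave 893 to 1199 genes called higher and 710 to 1158 lower, 3 to 5 of the 10 higher, 0 to 2 other family genes lower, 1 to 3 partners higher, 1 to 3 repair genes higher and 2 to 4 lower, and a median of the 10 between 0.18 and 0.36. Without Mock replicate 2 the calls of Anxa4 (0.3) and S100a11 (0.26) were lost, and without FeSO4 replicate 2 that of Anxa4 (0.27).

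The methods describe 2 pairs of samples, so the fit without a block departs from a paired design. The labels do not say that a replicate number marks a pair, and deviations of same-numbered libraries from their group means correlated at 0.22 over 8522 genes of at least 10 CPM. With the replicate number as a block, 1847 and 1580 of the 13732 genes tested were called higher and lower. Of the 10 genes, 5 were called higher and 1 lower (Anxa11). Among the other family genes 1 was called lower (S100a14, -1.90 with an adjusted p of 0.0295, edgeR). The block called 4 partners higher (Cacybp, Sugt1, Sri with an adjusted p of 0.0229 and Plgrkt with 0.0366, edgeR). It called 4 repair genes higher and 3 lower (Cpne3 and Myof in addition). Anxa9 and S100a14 had at most 60 reads in a library, and the effect of near-identical copies on the counts of Anxa11 and S100a11 was not tested.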
